A study of Mus musculus with 12 samples.

Results

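The receptors that guide B lineage cells through marrow, blood and lymphoid tissue were measured as RNA in 12 mouse pre-B cell lines. The set has 10 genes, listed by name and found by Ensembl identifier among the 51826 genes of the count table: the chemokine receptors Cxcr4, Ackr3, Ccr7, Ccr9, Cxcr5 and Cxcr3, the sphingosine-1-phosphate (S1P) receptors S1pr1, S1pr2 and S1pr4, and the oxysterol receptor Gpr183. All 10 were in the table, and 6 of them had enough reads to be tested. The lines came from the bone marrow of 2 C57BL/6 mice, which was grown with interleukin 7 (IL7), the growth factor of B cell precursors, for 7 days. From each mouse, transduction gave 3 lines carrying the empty retroviral vector pMIG (EV) and 3 carrying BCR-ABL1, the fusion kinase that results from the Philadelphia chromosome. All 12 lines stayed in IL7 for another 48 hours. The BCR-ABL1 lines were then grown for 1 week without IL7, whereas EV lines remained in IL7 and were sorted by GFP, so that the kinase and the loss of IL7 coincided in all lines and cannot be told apart. Lines are named by mouse and letter, 1A to 2C. The study asked how the transcriptome of transformed cells differs from that of their untransformed counterparts.

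Chemokine and lipid receptors of this kind are G protein-coupled receptors that sense a gradient of ligand and turn it into directed movement. In the marrow, CXCR4 holds B cell precursors near stromal cells that make its ligand CXCL12, while S1PR1 lets maturing cells follow S1P, which is abundant in blood, out of the tissue. CCR7, CXCR5 and GPR183 place mature B cells within lymphoid organs, and S1PR2 restrains migration through the G proteins of the G12/13 class.

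The lines had totals of 34791011 to 66011225 counts. Levels are given as CPM, the count of a gene relative to the TMM-scaled total of its library, and 15038 genes passed the filter on low counts. The 2 conditions were compared with edgeR's quasi-likelihood glmTreat, a test of whether a gene changed by more than 1.5-fold. A gene was called where its adjusted p (Benjamini-Hochberg, over all tested genes) was under 0.05. Markers of precursor B cells were measured in all lines, with 11 of 11 tested, and those of myeloid, plasmacytoid dendritic, erythroid and stromal cells did not exceed 32, 28, 10 and 12 counts in any line. Of 6 T and NK markers 1 was tested, Klrb1c. It had 2 to 54 counts in EV lines and 17 to 176 counts in BCR-ABL1 lines and was not called over the 12 lines (edgeR adjusted p = 0.497). Within mouse 1 it was called higher (log2 fold change 4.99, edgeR adjusted p = 7.44e-05). Among the untested ones Cd3g had 6 to 14 counts in EV lines and 0 to 1 in BCR-ABL1 lines. Cd3e, Cd4, Cd8a and Ncr1 had at most 4, 7, 6 and 2 counts in EV lines and at most 1 in BCR-ABL1 lines. EV 2C stood apart from the other EV lines of mouse 2, with a chi-square per gene of 270 against EV 2A and 434 against EV 2B, whereas the other pairs of lines of 1 mouse and condition had 9.36 to 78.1. P-values measure the spread between lines, and the 3 lines of a mouse and condition share 1 animal.

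Of the 6 tested receptors, 1 was called higher in BCR-ABL1 lines (S1pr1) and 2 were called lower (Cxcr4 and S1pr2), while Ccr7, Cxcr5 and S1pr4 were not called. Over all tested genes 5.99% were called higher and 6.49% lower, or 12.5% in either direction. With mouse as a block in the model the receptors had the same 3 calls, against 7.49% higher, 7.18% lower and 14.7% in all. The ranges of the conditions did not overlap for the 3 called receptors, and over all tested genes 12.1% were higher without overlap and 13.5% lower, or 25.6% together. The median log2 fold change of the 6 receptors was 0.03, and that of all tested genes was -0.02.

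**Figure D1:**
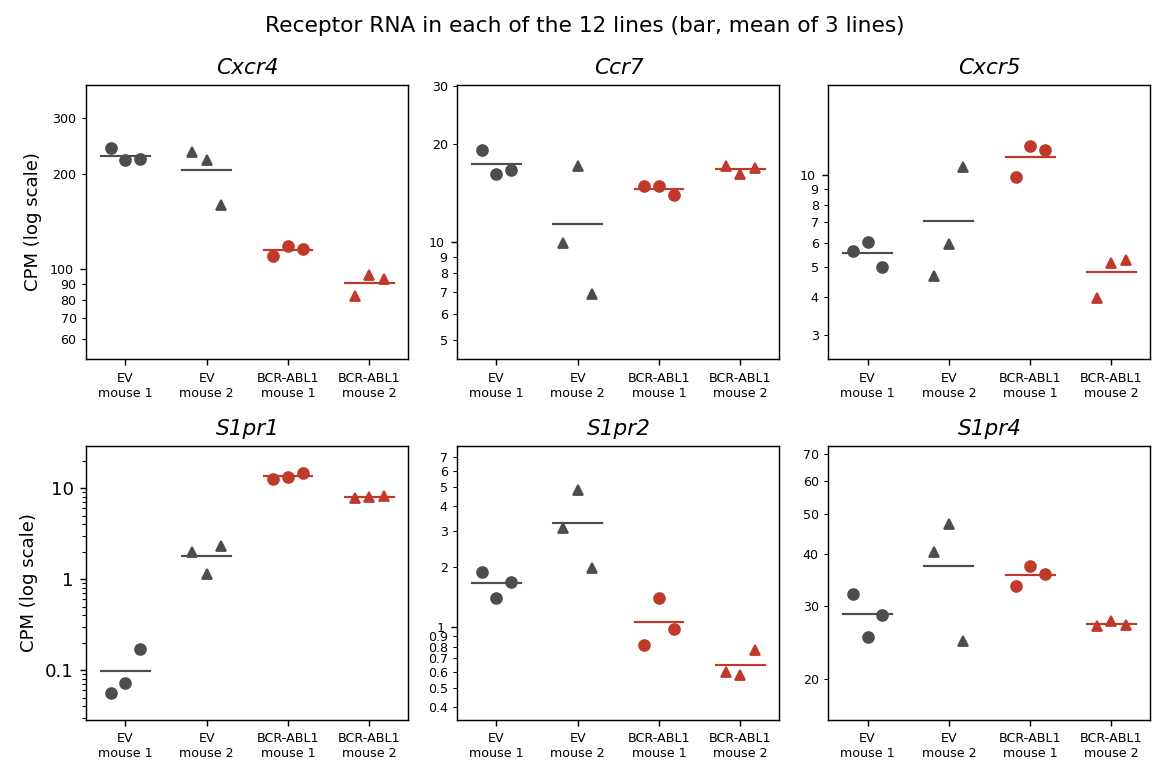
CPM on a log scale for the 6 tested receptors in each of the 12 lines, by condition and mouse. Each point is 1 line (circles, mouse 1; triangles, mouse 2) and each bar the mean of 3 lines. Every BCR-ABL1 line lies below every EV line for Cxcr4 and above every EV line for S1pr1, and the EV lines of mouse 1 and mouse 2 form separate groups for S1pr1.

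Sequence 5′ of the start site is shown for the 2 receptors that were called lower and for S1pr4, which was not called, since the same short motif is found before all of them. RefSeq promoter windows on GRCm38.p6 were at hand for 7 of the 10 receptors (Cxcr4, Ackr3, Ccr9, Cxcr3, S1pr2, S1pr4 and Gpr183). The 250 bases before the start site are given 5′ to 3′ on the strand of the gene, and capitals mark CACCC, a core that KLF-type factors bind, or GGGTG, the same core on the other strand:
Cxcr4, chr1:128592300-128592549, minus strand: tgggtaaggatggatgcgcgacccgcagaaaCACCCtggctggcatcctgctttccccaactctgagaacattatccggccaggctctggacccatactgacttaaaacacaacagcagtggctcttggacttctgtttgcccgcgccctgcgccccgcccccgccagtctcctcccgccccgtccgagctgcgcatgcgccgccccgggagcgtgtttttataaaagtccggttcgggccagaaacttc
S1pr2, chr9:20976794-20977043, minus strand: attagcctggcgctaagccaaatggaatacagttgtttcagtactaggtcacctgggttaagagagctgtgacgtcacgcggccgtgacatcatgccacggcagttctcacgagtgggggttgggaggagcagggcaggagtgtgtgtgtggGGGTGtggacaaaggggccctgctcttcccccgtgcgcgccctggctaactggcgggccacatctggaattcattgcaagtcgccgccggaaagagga
S1pr4, chr10:81500138-81500387, minus strand: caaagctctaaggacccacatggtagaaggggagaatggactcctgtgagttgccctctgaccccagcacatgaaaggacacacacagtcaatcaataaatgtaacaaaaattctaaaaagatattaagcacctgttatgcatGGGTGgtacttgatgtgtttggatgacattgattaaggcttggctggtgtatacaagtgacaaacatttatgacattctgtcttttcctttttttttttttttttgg
The motif began 219 bases before the start of Cxcr4, 98 before that of S1pr2 and 107 before that of S1pr4. It was present on either strand in 4 of the 7 receptor windows, Ccr9 included, and in 52% of 32851 windows of the same length. TGTTTAC, a site of FOXO factors, was in 0 of the 7 and in 3.17% of all windows. These matches describe letters only.

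Cxcr4 (ENSMUSG00000045382, chr1:128588199-128592293, GRCm38) was the most abundant receptor in every line and fell in the BCR-ABL1 lines. EV lines ranged from 160 to 241 CPM with a median of 222, and BCR-ABL1 lines from 82.4 to 118 CPM with a median of 103. The lowest EV line, EV 2C, still lay above the highest BCR-ABL1 line, and the other EV lines were at 221 CPM or more. The means were 217 ± 29.1 CPM (SD, n = 6) and 103 ± 14.2 CPM (SD, n = 6), a 2.11-fold lower level (log2 fold change -1.08, standard error 0.12, edgeR adjusted p = 0.00185). An exact permutation test over the 924 labelings of the lines gave p = 0.00216 (two-sided), the smallest p that these labelings allow. With labels exchanged only within each mouse, 400 labelings, an exact test added after the data were seen, p was 0.005 for Cxcr4, S1pr1, S1pr2 and Ccr9, again the smallest possible. Within mouse 1 the log2 fold change was -0.99 (edgeR adjusted p = 0.00707) and within mouse 2 it was -1.18 (adjusted p = 0.0016). Over all tested genes 19.3% were called within mouse 1 and 12.9% within mouse 2. The difference between the mice, -0.19 on the log2 scale, did not pass the interaction test (edgeR adjusted p = 0.552). Without EV 2C that difference was -0.34 and passed the test (adjusted p = 0.0283).

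CXCL12, the ligand of this receptor, is made by stromal cells, and Cxcl12 was listed with 0 counts in the BCR-ABL1 lines and at most 4 counts in an EV line. The atypical receptor Ackr3, which binds and clears CXCL12, had between 0 and 3 counts in EV lines and 0 in all BCR-ABL1 lines. At these depths 3 counts correspond to between 0.0433 and 0.092 CPM, and this floor covers counting error only. Ackr3 therefore stayed at or under the floor in every line, and no change could be read.

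Genes whose level followed that of Cxcr4 from line to line were ranked by Pearson's r between deviations of log2 CPM from the condition means over the 12 lines. The 3 nearest were Caskin2 (r = 0.978), Rpgrip1 (r = 0.975) and Hk1 (r = 0.96), the last of which encodes a hexokinase. Rpgrip1 was itself lower in BCR-ABL1 lines (31.6 ± 7.82 against 6.95 ± 1.94 CPM, SD, n = 6 each; edgeR adjusted p = 0.000183), whereas Caskin2 and Hk1 were not called. The 12 points share their libraries and include EV 2C, and the correlations are given as a description.

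S1pr1 (ENSMUSG00000045092, chr3:115710433-115715072), the receptor for exit into blood, was the only one of the 6 tested members called higher. EV lines ranged from 0.0565 to 2.31 CPM with a median of 0.661, and BCR-ABL1 lines from 7.78 to 14.8 CPM with a median of 10.4. In counts this was 3 to 128 reads against 393 to 741 reads. S1pr1 passed the filter on low counts through the BCR-ABL1 lines, where it is high. All 6 BCR-ABL1 lines lay above all 6 EV lines. The exact permutation test gave p = 0.00216. The log2 fold change was 3.51 (standard error 0.89 for the difference in mean log2 CPM, edgeR adjusted p = 0.0161) or 11.4-fold. With mouse as a block in the model it was 4.30 (edgeR adjusted p = 0.00671), and without EV 2A and EV 2C, an alternative added after the data were seen, 4.91 (adjusted p = 0.00214).

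The size of the S1pr1 rise differed between the mice. EV lines of mouse 1 held 0.0565 to 0.169 CPM and EV lines of mouse 2 held 1.15 to 2.31 CPM, a log2 difference of 4.14 between the mice without BCR-ABL1 (edgeR adjusted p = 2.14e-05; 10.3% of all tested genes were called in this comparison). BCR-ABL1 lines held 12.6 to 14.8 CPM in mouse 1 and 7.78 to 8.16 CPM in mouse 2, a difference that was not called (edgeR adjusted p = 1; 2.65% of all tested genes were). The log2 fold change over EV was therefore 7.05 in mouse 1 (edgeR adjusted p = 1.76e-07) and 2.14 in mouse 2 (adjusted p = 0.000975). Their difference of -4.90 passed the interaction test (edgeR adjusted p = 3.43e-05), as did 16.9% of all tested genes. The low EV counts of mouse 1 (3, 5 and 11 reads) make the size of its fold change uncertain, while the direction was the same in each mouse. Klrb1c, a marker of NK cells, also differed between the mice (edgeR interaction adjusted p = 0.000288), with 0.0289 to 0.0921 CPM in EV lines of mouse 1, 0.797 to 1.07 in EV lines of mouse 2, 1.05 to 3.68 in BCR-ABL1 lines of mouse 1 and 0.353 to 0.639 in those of mouse 2. Of the other T and NK markers, Ncr1 had at most 2 counts in a line, and Cd3g had fewer counts in BCR-ABL1 lines than in EV lines. The precursor markers Vpreb1, Vpreb2, Igll1 and Dntt, given below, differed between the mice in the same direction as S1pr1. The part of Klrb1c and of these markers in the S1pr1 values was not tested.

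S1pr2 (ENSMUSG00000043895, chr9:20962361-20976781), the inhibitory S1P receptor, moved in the opposite direction. EV lines ranged from 1.4 to 4.79 CPM with a median of 1.92, and BCR-ABL1 lines from 0.578 to 1.4 CPM with a median of 0.791. The 2 ranges met without crossing, since the lowest EV line, EV 1B, and the highest BCR-ABL1 line, BCR-ABL1 1B, were both at 1.4 CPM. The log2 fold change was -1.53 (standard error 0.32, 2.89-fold lower, edgeR adjusted p = 0.0246), and the exact permutation test gave p = 0.00216. The fall was -2.35 in mouse 2 (edgeR adjusted p = 0.00144) and -0.64 in mouse 1 (adjusted p = 0.588), and the difference of -1.71 passed the interaction test (edgeR adjusted p = 0.0252). The call was lost under DESeq2 (adjusted p = 0.081), with the replicate number as a block (edgeR adjusted p = 0.124) and without any 1 of the BCR-ABL1 lines of mouse 2 (adjusted p between 0.0518 and 0.0555). The difference between the mice did not pass without EV 1B, EV 1C or BCR-ABL1 1B, 2A or 2B (edgeR adjusted p between 0.0559 and 0.0717).

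S1pr4 (ENSMUSG00000044199, chr10:81497747-81500132), an S1P receptor of blood cells, was the most abundant of the S1P receptors per length and was not called. EV lines ranged from 24.7 to 47.2 CPM with a median of 30.3, and BCR-ABL1 lines from 26.8 to 37.5 CPM with a median of 30.5. The range of the BCR-ABL1 lines lay inside that of the EV lines. The log2 fold change was -0.08 (standard error 0.18, edgeR adjusted p = 1; exact permutation p = 0.788), with 0.31 in mouse 1 and -0.46 in mouse 2.

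The ratios among the S1P receptors differed accordingly. Per kilobase of exon, S1pr1 was between 0.135 and 3.07 times as high as S1pr2 in 5 EV lines and between 25.2 and 40.4 times as high in BCR-ABL1 lines. S1pr4 exceeded S1pr1 by 13.7 to 447 times in these EV lines and by 3.08 to 4.40 times in BCR-ABL1 lines. No ratio is given for EV 1A, where S1pr1 was at the floor of 3 counts. Neither ratio had a range that overlapped between the conditions.

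**Figure D2:**
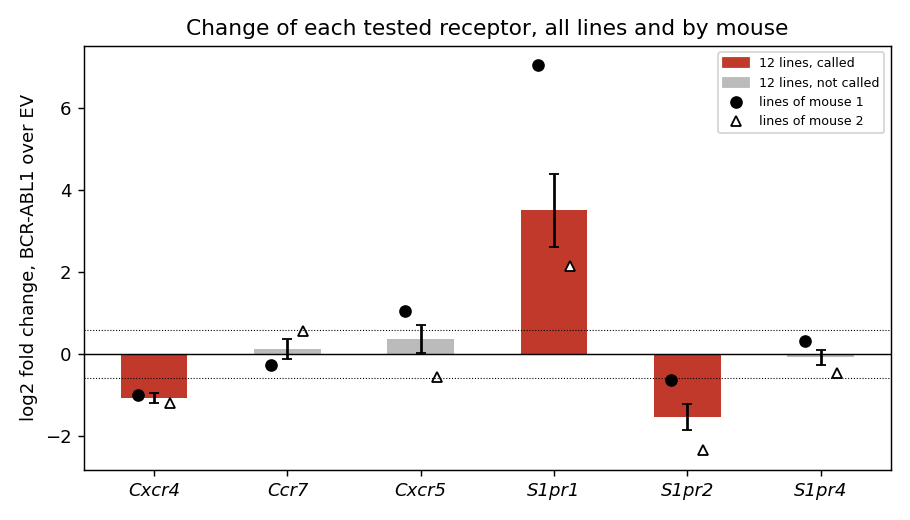
Log2 fold change of BCR-ABL1 over EV for the 6 tested receptors. Bars give all 12 lines (red, called, and grey, not called), with the standard error of the difference in mean log2 CPM. Filled circles give the lines of mouse 1, open triangles those of mouse 2, and dotted lines a 1.5-fold change. Cxcr4 fell in each mouse (-0.99 and -1.18), S1pr1 rose more in mouse 1, and Cxcr5, Ccr7 and S1pr4 had opposite signs in the 2 mice.

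Ccr7 (ENSMUSG00000037944, chr11:99144196-99155077), which draws lymphocytes to the T cell zones of lymphoid organs, was not called. EV lines ranged from 6.89 to 19.2 CPM with a median of 16.4, and BCR-ABL1 lines from 13.9 to 17.1 CPM with a median of 15.5. EV 2A and EV 2C were below all other lines, and the remaining EV lines overlapped the BCR-ABL1 lines. The log2 fold change was 0.13 (standard error 0.24, edgeR adjusted p = 1; exact permutation p = 0.452), with -0.25 in mouse 1 and 0.56 in mouse 2. Its sign turned without EV 2C (-0.015).

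Cxcr5 (ENSMUSG00000047880, chr9:44511787-44561877), the receptor that takes B cells into follicles, was not called over the 12 lines but had log2 fold changes of opposite sign in the 2 mice. EV lines ranged from 4.66 to 10.6 CPM with a median of 5.78, and BCR-ABL1 lines from 3.97 to 12.4 CPM with a median of 7.59. The BCR-ABL1 lines fell into 2 groups by mouse, 9.88 to 12.4 CPM in mouse 1 and 3.97 to 5.29 CPM in mouse 2, and EV 2C was the only EV line above 6.05 CPM. The log2 fold change was 0.36 (standard error 0.34, edgeR adjusted p = 1; exact permutation p = 0.45). It was 1.05 in mouse 1 (edgeR adjusted p = 0.0786) and -0.56 in mouse 2 (adjusted p = 0.789), and the difference of -1.61 passed the interaction test (edgeR adjusted p = 0.0128). Exons of Cxcr5 share 110 bases with Bcl9l on the other strand, and whether counting used strand is not given in the sources used here.

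Ccr9, Cxcr3, Gpr183 and Ackr3 did not pass the filter on low counts. Ccr9, the gut and thymus homing receptor, had 9, 14, 7, 9, 3 and 2 counts in the EV lines (1A to 2C) and a single BCR-ABL1 line with 2 counts, the other 5 being at 0. Every EV line was thus at or above the highest BCR-ABL1 line in counts. EV 2B and EV 2C were at or under the floor of 3 counts, and EV 2C had the same 2 counts as BCR-ABL1 2B. The summed counts were 44 and 2, and the exact permutation test gave p = 0.00216, although the gene stood below the filter of the test across genes. With no filter on low counts Ccr9 was called lower (edgeR adjusted p = 0.0133 over 40750 genes). In that setting 999 genes were called lower, and the median log2 fold change of all genes was -0.84. Its exons overlap AC165425.1 by 1932 bases on the other strand and Gm17200 by 269 bases on the same strand, so part of these reads may belong to them. Ccr9 is also on the list of plasmacytoid dendritic markers. Of that list Siglech had 1 to 28 counts in EV lines and 0 to 2 in BCR-ABL1 lines, and Pacsin1 0 to 12 and 3 to 9. The part of such cells in the Ccr9 counts was not tested. Cxcr3, the receptor of inflammatory chemokines, had 4 counts in EV 2A and 0 elsewhere, and Gpr183, which follows oxysterols to the edge of the follicle, had at most 2 counts in EV lines and 0 in BCR-ABL1 lines. For these, as for Ackr3, a difference was not detectable at this depth.

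Per kilobase of exon, Cxcr4 led in both conditions, followed by S1pr4 and Ccr7. In EV lines the levels were 119.9 ± 16.1, 13.9 ± 3.78 and 7.23 ± 2.42 CPM per kb (SD, n = 6), and each of them exceeded the next in all 6 lines. Cxcr5 followed at 1.9 ± 0.656 CPM per kb. S1pr1 (0.315 ± 0.333) and S1pr2 (0.31 ± 0.16) had similar means with overlapping ranges, and S1pr1 was the higher one in 2 of 6 lines. In EV lines of mouse 1 S1pr1 was at 0.0185 to 0.0555 and S1pr2 at 0.176 to 0.236 CPM per kb. In BCR-ABL1 lines the first 3 were at 56.7 ± 7.88, 13.1 ± 2.02 and 7.9 ± 0.657 CPM per kb. S1pr1 came next at 3.55 ± 1.04 CPM per kb, above Cxcr5 (2.44 ± 1.14) in 6 of 6 lines although their ranges overlapped, and S1pr2 was last of the tested receptors at 0.107 ± 0.0383.

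The summed level of the 10 receptors was 144 ± 19.1 CPM per kb in EV lines and 83.9 ± 11.4 in BCR-ABL1 lines (SD, n = 6). Cxcr4 made up 79.7% to 85.5% of this sum in EV lines and 65.8% to 68.9% in BCR-ABL1 lines, without overlap. The share of S1pr4 was 9.62% and 15.6% on average, that of Ccr7 4.96% and 9.65%, and that of S1pr1 0.241% and 4.17%. For S1pr4, Ccr7 and S1pr1 the shares did not overlap between the conditions either, although the levels of S1pr4 and Ccr7 were not called. Shares of 1 sum are not independent of each other.

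**Figure D3:**
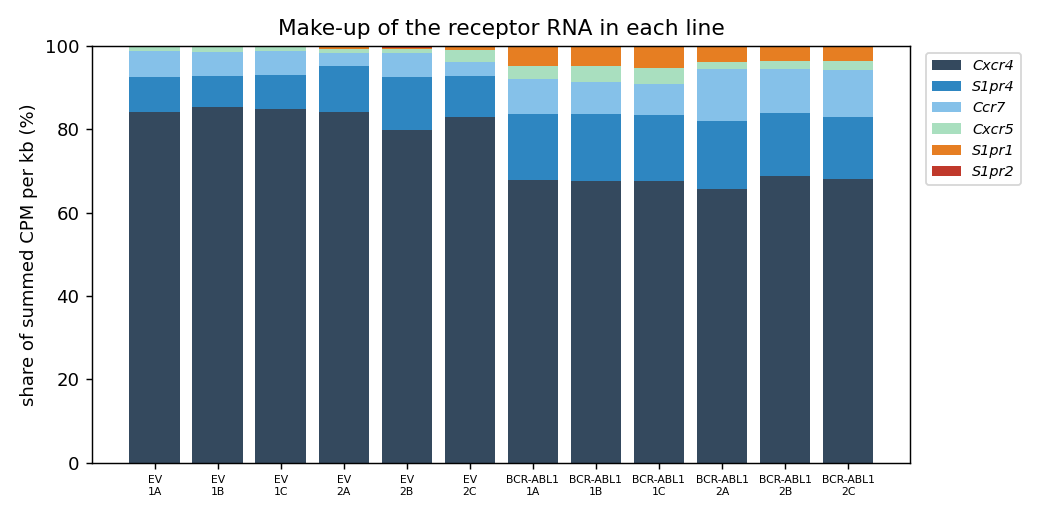
Share of the summed CPM per kb taken by each tested receptor in each line. Bars are stacked to 100% (the 4 untested receptors are too low to see). Cxcr4 takes 79.7% to 85.5% in EV lines and 65.8% to 68.9% in BCR-ABL1 lines, where S1pr1 is visible in every line.

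The other genes of the trafficking pathways were read from lists written by name. Among 18 further chemokine and S1P receptors, 4 were tested and 1 was called higher, S1pr3, against 5.99% higher over all tested genes. S1pr3, an S1P receptor more typical of vessel cells, had 1, 1, 0, 9, 5 and 1 counts in the EV lines and 180 to 431 counts in the BCR-ABL1 lines. Its BCR-ABL1 lines were at 3.47 to 7.31 CPM (median 5), above every EV line (edgeR adjusted p = 0.000134). No fold is given for it in mouse 1, whose EV lines were at or under the floor. Ackr4 and Ccr10 of the same list did not pass the filter on low counts. Ackr4 had 8 to 26 counts in EV lines and 0 to 1 in BCR-ABL1 lines. Ccr10 had 2 to 56 counts in EV lines and 0 to 1 in BCR-ABL1 lines. The CPM ranges of the conditions did not overlap for either gene, as for 25.6% of all tested genes. For Ccr10 the lowest EV line, EV 2B, had 2 counts, under the floor of 3, so its gap could not be read.

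None of the 9 ligands was called, with 2 tested (Mif and Ccl25). Of 14 enzymes and transporters of S1P and oxysterols, 8 were tested and 1 was called higher: Plpp3, a phosphatase that breaks down extracellular lipid phosphates. Plpp3 had 0 to 7 counts in EV lines and 21 to 31 counts in BCR-ABL1 lines (edgeR adjusted p = 0.00347). Of 29 G proteins, arrestins and effectors, 27 were tested, with 1 called higher and 1 lower. Over all tested genes 12.5% were called in either direction. Gng2, a G protein gamma subunit, had 1, 1, 1, 8, 43 and 4 counts in EV lines and 572 to 1353 counts in BCR-ABL1 lines, or 12 to 20.6 CPM (edgeR adjusted p = 0.000534). Plcb2, a phospholipase C driven by G protein subunits, ranged from 22.8 to 60.05 CPM (median 47.0) in EV lines and from 17.1 to 25.7 CPM (median 20.1) in BCR-ABL1 lines. Its ranges overlapped, and the log2 fold change was -1.09 (standard error 0.23, edgeR adjusted p = 0.0345). The median log2 fold change of the tested genes was 0.76 for the further receptors, 0.27 for the ligands, 0.45 for the enzymes and transporters and 0.15 for the effectors. These medians leave out genes under the filter on low counts, such as Ackr4 and Ccr10. S1pr3, Plpp3 and Gng2 passed that filter through the BCR-ABL1 lines, where they are high, so the medians do not describe the whole lists. With mouse as a block, 3 further genes of these lists were called higher: Plpp2 (1.34, edgeR adjusted p = 0.0291), a relative of Plpp3, Pik3r5 (1.76, adjusted p = 0.039), a regulatory subunit of the PI3K that G proteins activate, and Grk5 (1.09, adjusted p = 0.0499), a kinase of activated receptors. In that fit 7.49% of all tested genes were called higher.

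**Figure D4:**
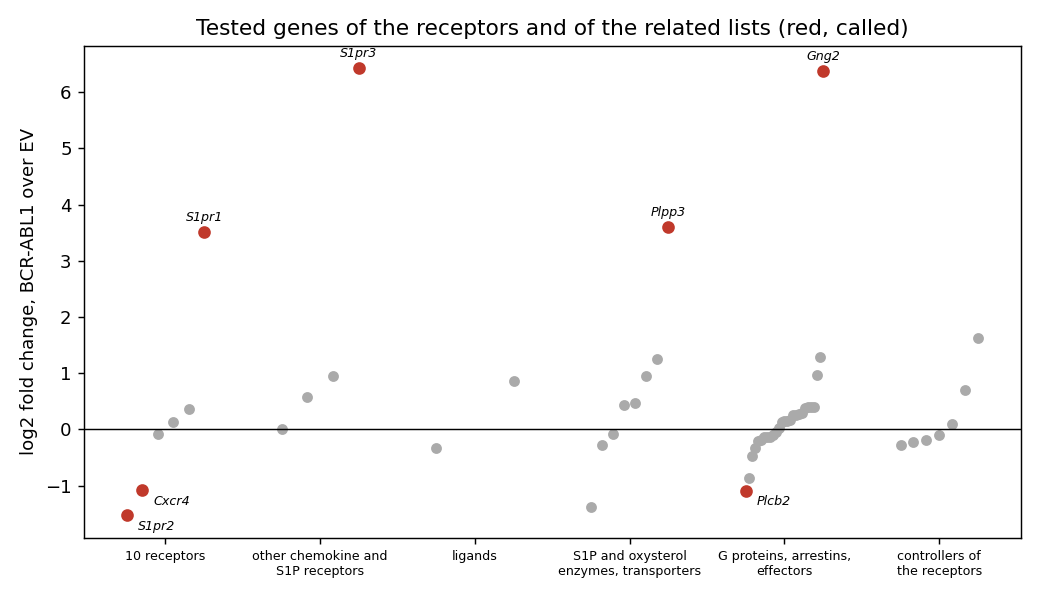
Log2 fold change of BCR-ABL1 over EV for the tested genes of the receptors and of the lists of related genes. Each point is 1 gene, and called genes are red and named. S1pr1, S1pr3, Plpp3 and Gng2 lie above 0, Cxcr4, S1pr2 and Plcb2 below, and the other genes were not called.

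None of 7 known controllers of these receptors was called, and their median log2 fold change was -0.10. Klf2 and Cd69, named after their values were seen, act on S1pr1: KLF2 activates its gene, and CD69 removes the receptor from the cell surface. Klf2 ranged from 1.54 to 12.2 CPM (median 2.4) in EV lines and from 5.64 to 17.3 CPM (median 13.3) in BCR-ABL1 lines, with a log2 fold change of 1.62 (standard error 0.53, edgeR adjusted p = 0.121). With mouse as a block in the model Klf2 was called higher (edgeR adjusted p = 0.00969). Cd69 was at 69.3 ± 13.9 and 112 ± 15.5 CPM (SD, n = 6), with a log2 fold change of 0.70 (edgeR adjusted p = 0.323). Foxo1, which acts upstream of several of these receptors, was at 89.7 ± 13.0 and 95.9 ± 20.3 CPM (edgeR adjusted p = 1).

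Most markers of B cell stage were not called in the comparison of all lines. Of 4 tested markers of mature B cells 2 were called lower: Ms4a1, which encodes CD20 (edgeR adjusted p = 0.00771), and Cd22 (adjusted p = 0.0345). Over all tested genes 6.49% were called lower and 5.99% higher. Ms4a1 had 18 to 595 counts in EV lines and 0 to 10 in BCR-ABL1 lines, and passed the filter through the EV lines. It was called within mouse 2 (edgeR adjusted p = 0.00107) and not within mouse 1 (adjusted p = 0.219). Cd22 was called within mouse 1 (edgeR adjusted p = 0.00261) and not within mouse 2 (adjusted p = 0.178). The summed level of the list ranged over 134 to 267 CPM in the EV group and 44.8 to 117 CPM with BCR-ABL1. Cd22 alone was at 136 ± 39.3 and 53.1 ± 23 CPM (SD, n = 6). Of 11 precursor markers 1 was called higher, Dntt, the terminal transferase of early B cell precursors (edgeR adjusted p = 0.0396), and with mouse as a block it was not (adjusted p = 0.0533). Dntt had 7 to 929 counts in EV lines and passed the filter through the BCR-ABL1 lines. Within mouse 1 Vpreb1, Vpreb2, Igll1 and Dntt were called higher (log2 fold changes 1.5, 3.09, 1.18 and 9.39, edgeR adjusted p at most 0.026). These 4 passed the interaction test (edgeR adjusted p at most 0.00577) and were higher in EV lines of mouse 2 than of mouse 1 (adjusted p at most 0.0126). The other precursor markers were not called within mouse 1, and none was within mouse 2. Summed precursor markers ranged over 2496 to 4373 CPM in the EV group and 2733 to 3627 CPM with BCR-ABL1. The part of cell stage, and of GFP sorting, which the EV lines alone are stated to have had, in the receptor values was not tested. In bulk RNA, fewer cells with a receptor and less receptor RNA per cell cannot be told apart, and no protein was measured in these files.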

How the data were processed

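Reads of stranded total RNA libraries were counted per gene by the authors, who deposited whole-number counts for 12 lines without normalization or pooling. The submitters' processing notes name FastQC 0.11.5, Trimmomatic 0.36, TopHat2 2.1.1, Bowtie2 2.3.2, featureCounts 1.5.3, R 3.6.1 and edgeR 3.18.1, and the build GRCm38. The annotation release and the strand setting of the counting are not given in the sources used here. Total counts per line were 34791011 to 66011225, and reads carry no molecular identifiers, so that the floor of 3 counts covers counting error only.

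Tests were run with edgeR 4.0.16, DESeq2 1.42.0 and limma 3.58.1 under R 4.3.3, and plots drawn with matplotlib 3.10.9 (Python 3.11.15). Symbols, positions and exon lengths came from GENCODE M21 (51633 of 51826 identifiers matched). After filterByExpr and TMM scaling, glmTreat on edgeR's quasi-likelihood model tested for changes beyond 1.5-fold. This fold and the threshold of 0.05 are the paper's, where a likelihood ratio fit was used. Standard errors reflect the spread between lines of log2 CPM (prior count 2). Effects within a mouse, and their difference by glmQLFTest, come from a fit with 4 groups of 3 lines. Single receptors were also tested by two-sided exact permutation over 924 labelings. The code was tested on simulated counts with 200 changed genes.

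The receptors and lists were chosen with earlier results of these data known. All 10 receptors are named, and from each list every called gene. An item of the lists is not reported here. EV and BCR-ABL1 lines share the labels 1A to 2C, and the digit marks the animal. Correlations of the lines' deviations from their condition means were 0.0853 to 0.240 within a mouse and -0.203 to -0.0636 across mice, so the mouse pairs the lines. After removal of mouse means, lines with the same letter correlated between -0.109 and 0.0856, so the letter does not. Lines of 1 mouse and condition differed by a chi-square per gene of 9.36 to 434, and none was treated as a copy of another. The alternatives were other scalings, filters and tests, the blocks, each mouse alone and leaving out each line. Scaling by total counts, permutation within each mouse and leaving out EV 2A and EV 2C were added after seeing the data.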

Additional observations from a re-analysis of the deposited data

Results flagged for a closer look

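In groups of 6 lines, 1 line far from the others was looked for with Dixon's test in 20 groups, and about 5% of such groups pass by chance. EV 2C was low for Cxcr4, at 160 CPM against 221 to 241 CPM in the other EV lines, and high for Cxcr5, at 10.6 CPM against 4.66 to 6.05 CPM. EV 2A was high for Plpp3, at 0.215 CPM against 0 to 0.0397 CPM, and for S1pr3, at 0.276 CPM against 0 to 0.0993 CPM. These were 7 counts of Plpp3 and 9 of S1pr3. The share of 5% is for normally distributed values and need not hold at such low counts. EV 2B was high for Gng2, at 0.854 CPM against 0.0144 to 0.245 CPM.

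The BCR-ABL1 effect differed between the mice for 3 receptors by the interaction test, with log2 differences (mouse 2 minus mouse 1) of -4.90 for S1pr1, -1.71 for S1pr2 and -1.61 for Cxcr5. S1pr3 and Gng2 differed too, by -3.88 and -3.85. In mouse 1 their EV lines had 0 or 1 count, so that the size of these last values depends on the prior count.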

How the results depend on the processing

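Cxcr4 stayed called lower and S1pr1 called higher under all 24 alternatives, with log2 fold changes of -1.17 to -0.98 and 2.15 to 7.05. The fit with mouse as replicate block called 1126 genes higher and 1080 lower, and the calls among the 6 tested receptors were the same. S1pr2 lost its call under DESeq2, with the replicate number as block and in mouse 1 alone (adjusted p = 0.081, 0.124 and 0.509), which left 1 receptor lower, and leaving out 1 line left 1 to 2 lower and 1 to 1 higher. In mouse 1 alone, where Cxcr5 was called (1.05, edgeR adjusted p = 0.00176), 2 receptors were higher. Uncalled values changed sign for Ccr7 in mouse 1 alone (-0.24), without EV 2A and EV 2C (-0.15) and without EV 2C (-0.015; -0.015 to 0.26 without 1 line), for Cxcr5 in mouse 2 alone (-0.55), and for S1pr4 in mouse 1 alone (0.32) and without EV 2B (0.044; -0.14 to 0.044 without 1 line). The 3 receptors whose effect differed between the mice became 5 with no filter on low counts and 2 to 5 without 1 line (5 without EV 2C). Over all genes, 3389 were higher and 3897 lower in the test against no change, 2512 and 1877 in mouse 1 alone, and 1584 and 1527 without EV 2A and EV 2C. In mouse 2 alone 408 were lower. Without 1 line, 807 to 1353 were higher (1353 without EV 2C) and 802 to 1434 lower. No filter moved the median log2 fold change of all genes to -0.84. The causes were not tested. Depth limits Ackr3, Ccr9, Cxcr3 and Gpr183, and 2 mice limit what the lines say of others.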
